A study of Mus musculus with 5 samples.

Results

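Solute carriers are the membrane proteins that move amino acids, sugars, nucleosides, ions and other small molecules across the plasma membrane and the membranes of organelles. Their genes, named Slc with a family number, were described here in CD4 T cells of a mouse tumor model. The members are all listed genes whose name starts with Slc and a digit, without Slc16a3, and number 179 of the 11924 genes in the tables. Of these, 15 belong to the amino acid families Slc1, Slc3, Slc7 and Slc38, 6 to the glucose family Slc2 and 36 to the mitochondrial family Slc25. Another 4 members carry a carrier's name but encode no carrier: Slc7a6os, Slc36a3os, Slc9a3r1 and Slc4a1ap. Slc1a4 and Slc25a3 were not analysed here.

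A resting T cell that is activated takes up more amino acids and glucose to build proteins, nucleotides and membranes. Slc7a5 forms with Slc3a2 the CD98 exchanger, which brings in leucine and other large neutral amino acids in exchange for glutamine; Slc1a5, Slc38a1 and Slc38a2 carry small neutral amino acids including glutamine. Slc2a1 and Slc2a3 encode the glucose transporters GLUT1 and GLUT3. Most Slc25 carriers sit in the inner mitochondrial membrane, and the ADP/ATP exchangers Slc25a4 and Slc25a5 pass newly made ATP to the cytosol.

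Single-cell RNA was counted at the 3′ end of transcripts in 5 libraries of SMARTA cells, CD4 T cells with a transgenic receptor on a C57BL/6 background, sorted as CD4+CD45.1+. The tumor libraries came from the inguinal lymph node on day 8 after implantation of a tumor, and the groups were diphtheria toxin against regulatory T cells (Tregs) on days 0 and 2 together with anti-CTLA4 antibody on days 0, 2 and 5, toxin alone, antibody alone, and neither. The fifth library held naive SMARTA cells from spleen. The labels name both MC38 and PyMG as the tumor, mention an isotype antibody and PBS without assigning them to a library, and do not say how many mice a library pooled. Each group is a single library without replicates, and all intervals below are exact 95% intervals for counting error alone.

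The libraries held 4343 cells with both treatments, 2186 with Treg depletion, 4566 with antibody, 1099 untreated and 7955 naive, at medians of 2468, 5208.5, 4797, 3133 and 1683 unique molecular identifiers (UMIs) per cell. Pairs of libraries shared between 0 and 10 cell barcodes. The libraries from toxin-treated mice stood apart in a way their label does not predict: Foxp3, the lineage factor of Tregs, had at least 1 UMI in 38.0% of cells with both treatments and 58.7% with Treg depletion, against 1.18% with antibody, 1.46% untreated and 0.905% naive. A UMI of a SMARTA receptor variable gene was seen in 18.6% of the Foxp3-positive and 49.2% of the Foxp3-zero cells with both treatments, and in 21.4% and 54.9% of the same cells with Treg depletion. These shares were 68.5% and 73.6% with antibody, 62.5% and 63.3% untreated, and 30.6% and 34.4% naive. The Foxp3-positive cells behind them numbered only 54, 16 and 72. A cell without such a UMI can thus still be a SMARTA cell. Summed B cell markers (14 of 14 listed) stood at 3328, 5297, 1659, 963 and 862 CPM (UMIs per 1000000 UMIs of the listed genes) in the same order of libraries, of which Ighm and Igkc made up most in the toxin libraries, while Ms4a1 was at 1.54, 1.36, 9.26, 0 and 1.82 CPM. Their part in the differences below was not tested. Values in Foxp3-zero cells are given beside most of the results that involve a toxin library. Foxp3-zero means only that no Foxp3 UMI was read, which shallow cells can miss. In Foxp3-zero cells Ctla4, another Treg marker, had 396 CPM with both treatments and 259 with Treg depletion, against 97.1 with antibody and 132 untreated. How many Tregs the Foxp3-zero cells still hold was not tested.

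Of the T cell markers 4 of 11 are listed (Cd4, Cd28, Thy1 and Cd5), and they summed to 1573 CPM with both treatments, 1664 with Treg depletion, 2469 with antibody, 2939 untreated and 2810.3 naive, so that they were lowest in the toxin libraries too. Libraries held between 3825958 and 27967273 UMIs in all. The members at 25 CPM or more numbered 68 with both treatments, 64 with Treg depletion, 68 with antibody, 73 untreated and 82 naive, and those at 0 numbered 2, 2, 2, 9 and 4.

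UMIs were summed per library and scaled to CPM of the listed genes, so that fewer cells with a transcript and fewer UMIs per cell cannot be told apart. At the 3′ end each transcript gives 1 tag whatever its length. All members together took 7460 CPM with both treatments, 7321 with Treg depletion, 7791 with antibody, 7920.1 untreated and 8013 naive. Their total thus differed little, while the classes within it shifted. The 15 amino acid carriers summed to 1089 CPM with both treatments, 818 with Treg depletion, 943 with antibody, 1229.8 untreated and 1432 naive. The 6 members of the glucose family Slc2 summed to 93.4, 114, 63.1, 64.0 and 83.5 CPM in the same order, and the 36 mitochondrial carriers to 2959, 3202, 3372, 2851 and 2212 CPM. By these sums the naive library was highest for amino acid carriers and lowest for mitochondrial ones, and the toxin libraries were highest for the glucose family. Single members carried much of each sum: Slc25a5 held 46.1%, 48.5%, 46.1%, 41.9% and 33.2% of the mitochondrial UMIs. The mitochondrial carriers at 25 CPM or more numbered 17, 16, 17, 17 and 22 in the same order, most in naive cells. The low naive sum thus does not describe the family as a whole, since Slc25a4 and Slc25a5 were both lowest there.

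**Figure D1:**
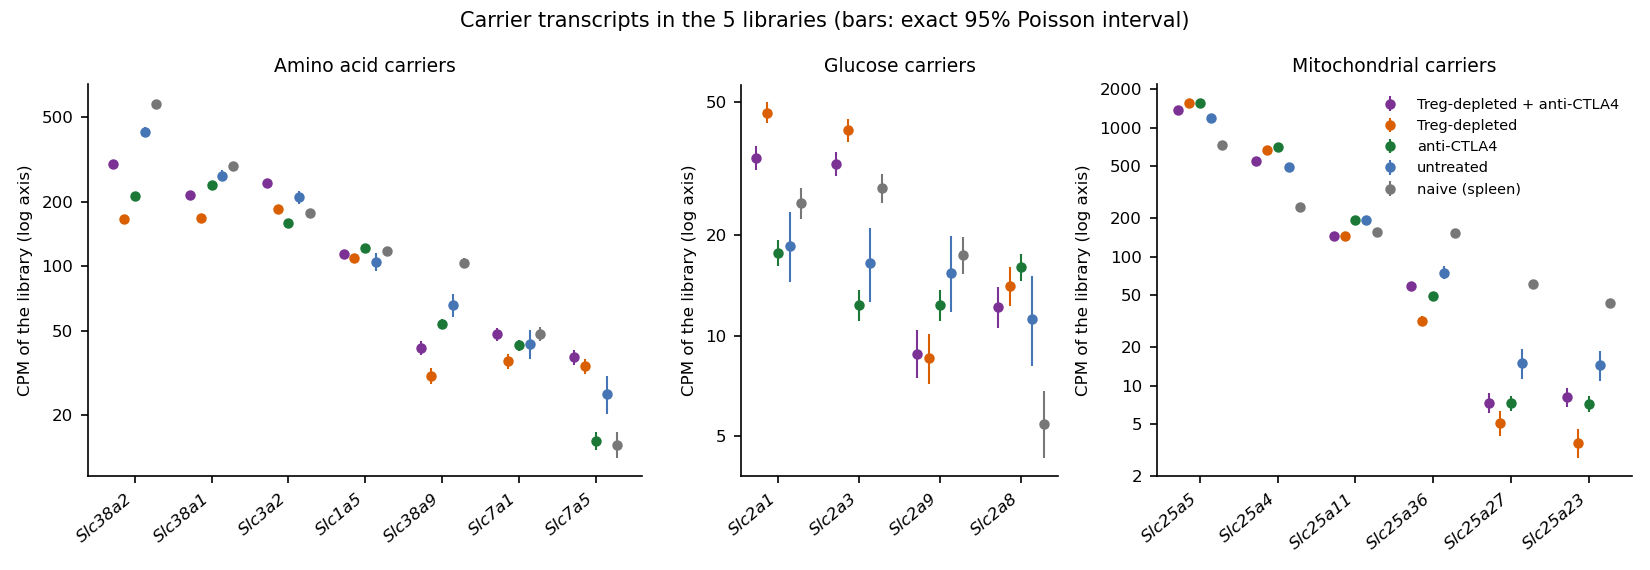
CPM (log axis) of larger members of the amino acid, glucose and mitochondrial families in the 5 libraries, with exact 95% Poisson intervals as bars and 1 point per library. Slc38a2 is at 166 CPM with Treg depletion and 573 CPM in naive cells, Slc2a1 and Slc2a3 are highest with Treg depletion, and Slc25a4 and Slc25a5 are lowest in naive cells.

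A member was compared where it averaged at least 25 CPM and had at least 30 UMIs over both sides, and was counted as higher or lower from 1.5-fold. In untreated tumor lymph node cells against naive cells, 78 members were compared, of which 8 were higher and 16 lower. Of all 6814 genes compared 12.8% were higher and 16.9% lower, so the members were close to the background. The 7 amino acid carriers compared held 0 higher and 1 lower, the 20 mitochondrial ones 5 higher and 4 lower, and the 10 carriers of inorganic ions and protons 0 higher and 6 lower. The median log2 ratio was -0.16 over the members and -0.06 over all genes compared.

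Both ADP/ATP exchangers were among the 5 mitochondrial carriers that were higher. Slc25a4 (chromosome 8, 46206797 to 46211284, minus strand of GRCm38) had 495 CPM in untreated cells against 241 CPM in naive cells, a ratio of 2.05 (1.94 to 2.17). Slc25a5 (chromosome X, 36795651 to 36798807, plus strand) had 1194 CPM in untreated cells against 735 CPM in naive cells, 1.63 times as much (1.57 to 1.68). Of the sequences of 31 bases in the last 300 bases of its transcripts, 35.0% also occur in unlisted copies such as Slc25a5-ps, so its count is less certain. Both stayed above the naive level in the other tumor libraries: Slc25a4 had 553 CPM with both treatments, 668 with Treg depletion and 706 with antibody, and Slc25a5 had 1364, 1553 and 1553 CPM. The others included Slc25a38, a glycine carrier of heme synthesis (44.4 CPM untreated against 22.8 naive, 1.95 times), and Slc25a1, the citrate carrier (36.9 against 22.2 CPM, 1.66 times). Among the mitochondrial import and exchange genes outside the family, 3 of 28 compared were higher (Tomm7, Vdac1 and Timm8b) and 1 lower (Timm9).

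Another 4 mitochondrial carriers were lower. Slc25a27, an uncoupling protein homologue, had 14.9 CPM in untreated cells against 61.2 CPM in naive cells, 4.11 times lower (3.14 to 5.47). Slc25a23, a calcium-regulated ATP-magnesium and phosphate carrier, had 14.4 CPM untreated and 43.5 CPM naive, 3.03 times lower. Slc25a36, a carrier of pyrimidine nucleotides, had 75.3 CPM untreated and 153 CPM naive, 2.04 times lower. These 3 were lower still in every treated library, with Slc25a27 at 7.35 CPM with both treatments, 5.14 with Treg depletion and 7.29 with antibody. Slc25a40 was the fourth, at 32.9 CPM untreated and 53.2 CPM naive.

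Other mitochondrial carriers were flatter across the libraries. The oxoglutarate and malate carrier Slc25a11, whose exons overlap Rnf167 on the other strand, had 144 CPM with both treatments, 145 with Treg depletion, 191 with antibody, 192 untreated and 156 naive. The glutathione carrier Slc25a39 had 85.9, 84.6, 101, 88.3 and 71.5 CPM, and the NAD carrier Slc25a51 44.5, 36.9, 39.6, 48.9 and 62.4 CPM in the same order. Each of these 3 stayed within 1.5-fold of the untreated level in every library. The pyrimidine nucleotide carrier Slc25a33 had 32.2 CPM with both treatments and 31.1 with Treg depletion, against 15.2 with antibody, 15.2 untreated and 9.01 naive, and thus ran opposite to Slc25a36 between the toxin and naive libraries. Foxp3-zero non-cycling levels of Slc25a33 were 21.3 CPM with both treatments and 28.8 with Treg depletion, against 15.98 untreated and 9.63 naive. The iron carrier Slc25a37, which shares 33.2% of its 3′ sequences with Gm16867, had 24.4, 14.1, 18.5, 18.03 and 27.0 CPM, and the folate and FAD carrier Slc25a32 18.1, 19.4, 22.5, 23.8 and 33.0 CPM.

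Outside the 3 families, the nucleoside carrier Slc29a1 (86.5 CPM untreated against 36.5 naive, 2.37 times, 2.05 to 2.73) and the folate carrier Slc19a1 (34.2 against 18.9 CPM, 1.81 times) were higher. Slc36a3os, annotated as an antisense transcript, had 43.1 CPM untreated against 12.5 naive, 3.45 times as much. Slc17a9, the vesicular ATP carrier, had 30.1 CPM untreated against 108 naive, 3.61 times lower (2.98 to 4.40). Slc49a4 had 21.2 CPM untreated and 54.7 naive, and Slc24a5, a potassium-dependent sodium and calcium exchanger whose exons overlap Myef2 on the other strand, 24.3 and 57.3 CPM. Among Foxp3-zero non-cycling cells alone, 8 of 78 members were higher and 14 lower in untreated cells, where 13.2% of all genes were higher and 17.4% lower, a split close to that of all cells.

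The single amino acid carrier that was lower in untreated than naive cells was Slc38a9, the arginine sensor of the lysosome that signals to mTORC1, at 65.6 CPM untreated and 104 CPM naive (1.58 times lower). Slc38a2, the amino acid carrier with the highest naive level, had 427 CPM untreated and 573 CPM naive, short of 1.5-fold. The promoters of these 2 carriers, which both were lowest with Treg depletion, and of the ADP/ATP exchanger pair are printed from RefSeq (GRCm38.p6), as the 250 bases before the gene's start in RefSeq, 5′ to 3′ along the gene. The windows are chr15:96699729-96699978 (minus strand) for Slc38a2, chr13:112660516-112660765 (plus) for Slc38a9, chr8:46211063-46211312 (minus) for Slc25a4 and chrX:36795347-36795596 (plus) for Slc25a5, whose first transcribed bases in RefSeq were not found in the GENCODE transcripts. RefSeq and GENCODE place the start of Slc25a4 differently, so 222 of the 250 bases of its window, both CCAAT boxes included, lie inside the gene as GENCODE gives it, against 2 for Slc38a2, 15 for Slc38a9 and 0 for Slc25a5. Capitals mark the GC box (GGGCGG or its complement CCGCCC) and, in Slc25a4, the CCAAT box.
Slc38a2: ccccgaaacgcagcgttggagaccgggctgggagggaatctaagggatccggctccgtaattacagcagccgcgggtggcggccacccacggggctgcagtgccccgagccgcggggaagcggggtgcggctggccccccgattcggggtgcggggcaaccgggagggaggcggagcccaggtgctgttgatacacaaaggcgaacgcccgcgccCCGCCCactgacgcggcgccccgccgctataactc
Slc38a9: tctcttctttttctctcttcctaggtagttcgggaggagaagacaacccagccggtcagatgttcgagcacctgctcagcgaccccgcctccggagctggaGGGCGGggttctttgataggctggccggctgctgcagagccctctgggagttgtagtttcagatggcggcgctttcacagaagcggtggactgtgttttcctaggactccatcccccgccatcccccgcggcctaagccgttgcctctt
Slc25a4: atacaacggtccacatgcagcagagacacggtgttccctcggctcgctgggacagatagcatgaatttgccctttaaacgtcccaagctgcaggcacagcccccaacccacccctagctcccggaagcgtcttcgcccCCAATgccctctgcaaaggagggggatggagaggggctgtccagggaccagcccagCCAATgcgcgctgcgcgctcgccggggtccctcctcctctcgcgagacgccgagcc
Slc25a5: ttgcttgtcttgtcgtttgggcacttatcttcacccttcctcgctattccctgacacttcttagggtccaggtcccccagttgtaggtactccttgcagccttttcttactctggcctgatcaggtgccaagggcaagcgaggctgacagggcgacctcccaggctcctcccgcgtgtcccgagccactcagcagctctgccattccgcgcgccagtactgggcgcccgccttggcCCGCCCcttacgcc

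Slc25a4 and Slc25a5, both lowest in the naive library, shared none of the motifs searched: the Slc25a4 window held 2 CCAAT boxes and no GC box, and the Slc25a5 window 1 GC box and no CCAAT box. The other motifs searched on both strands were the E-box CACGTG, the amino acid response element TGATGNAA and the TATA box TATAAA, with 0 matches in all 4 windows. Promoter windows were found for 137 of the 179 members, 184 windows in all. A GC box was in 63.0% of them against 32.7% of all 32851 windows, a CCAAT box in 34.2% against 33.8%, an E-box in 13.0% against 6.02%, the response element in 3.26% against 3.45% and a TATA box in 4.89% against 12.4%. The 32851 windows were not limited to listed genes, as the members are, so the shares compare unlike sets. Windows differ in base composition, and a match is a description of the letters alone.

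With antibody against untreated, 70 members were compared, 0 were higher and 6 lower, where 5.46% of all genes compared were higher and 6.62% lower. Slc38a2 (chromosome 15, 96687392 to 96699730, minus strand) was farthest from the untreated level, at 213 CPM with antibody against 427 CPM untreated, 2.00 times lower (1.89 to 2.11). Slc12a7, a potassium and chloride cotransporter, had 28.5 CPM with antibody and 52.5 CPM untreated, 1.84 times lower. The other 4 were Slc25a36 (49.5 against 75.3 CPM), Slc7a6os (30.5 against 46.8), the magnesium carrier Slc41a1 (20.6 against 32.4) and Slc25a30 (20.1 against 30.3), each 1.51 to 1.57 times lower. Slc7a5 was below the level minimum, with 15.2 CPM with antibody and 25.1 CPM untreated. Under the trimmed mean scaling of edgeR (TMM), which raised the antibody log2 ratios by 0.09, the split was 2 higher and 2 lower. Limited to Foxp3-zero non-cycling cells, 2 of 74 members were higher and 3 lower (2.4% and 3.09% of all genes). Slc38a2 stayed lower there, at 0.615 times untreated. Slc25a36 was at 0.848 times, short of 1.5-fold, and the direction of Slc25a30 was turned (log2 ratio 0.0724).

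The glucose carriers Slc2a1 and Slc2a3 were highest in the toxin libraries. Slc2a1 (chromosome 4, 119108711 to 119137983, plus strand) had 34.2 CPM with both treatments and 46.6 CPM with Treg depletion, against 17.7 with antibody, 18.6 untreated and 24.99 naive. Slc2a3 (chromosome 6, 122727809 to 122801640, minus strand) had 32.7 and 41.2 CPM in the toxin libraries, against 12.3 with antibody, 16.5 untreated and 27.7 naive. With Treg depletion Slc2a1 was 2.51 times the untreated level (1.97 to 3.25) and Slc2a3 2.50 times (1.93 to 3.29). With both treatments Slc2a1 was 1.84 times the untreated level (1.44 to 2.39), and Slc2a3 averaged under 25 CPM over the 2 libraries. The other 4 glucose family members, Slc2a6, Slc2a8, Slc2a9 and Slc2a12, did not reach 25 CPM in any library. Slc2a6 was at 2.31 CPM with both treatments, 2.60 with Treg depletion, 1.79 with antibody and 0 in the untreated and naive libraries. In the Foxp3-zero non-cycling cells Slc2a1 had 20.7 CPM with both treatments and 33.1 CPM with Treg depletion, against 21.3 CPM untreated, and Slc2a3 16.8 and 28.8 CPM against 14.6. In these cells Slc2a1 was at 0.970 times the untreated level with both treatments (0.576 to 1.64) and at 1.55 times with Treg depletion (0.917 to 2.63). Of 21 other glucose use genes compared, 10 were higher and 4 lower with Treg depletion, and 8 higher and 5 lower with both treatments, among them Ldha, Hk2 and Pkm on the higher side and Txnip, which holds back glucose uptake, on the lower side. Eno1 was higher with Treg depletion and lower with both treatments, and Ldhb, Pdk1 and Mpc2 were lower in both. Among Foxp3-zero non-cycling cells 6 of 22 were higher and 2 lower with Treg depletion, Ldha among the higher. With both treatments 1 of 21 was higher and 3 lower in those cells, and Ldha, Hk2, Pkm and Txnip were not among them.

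**Figure D2:**
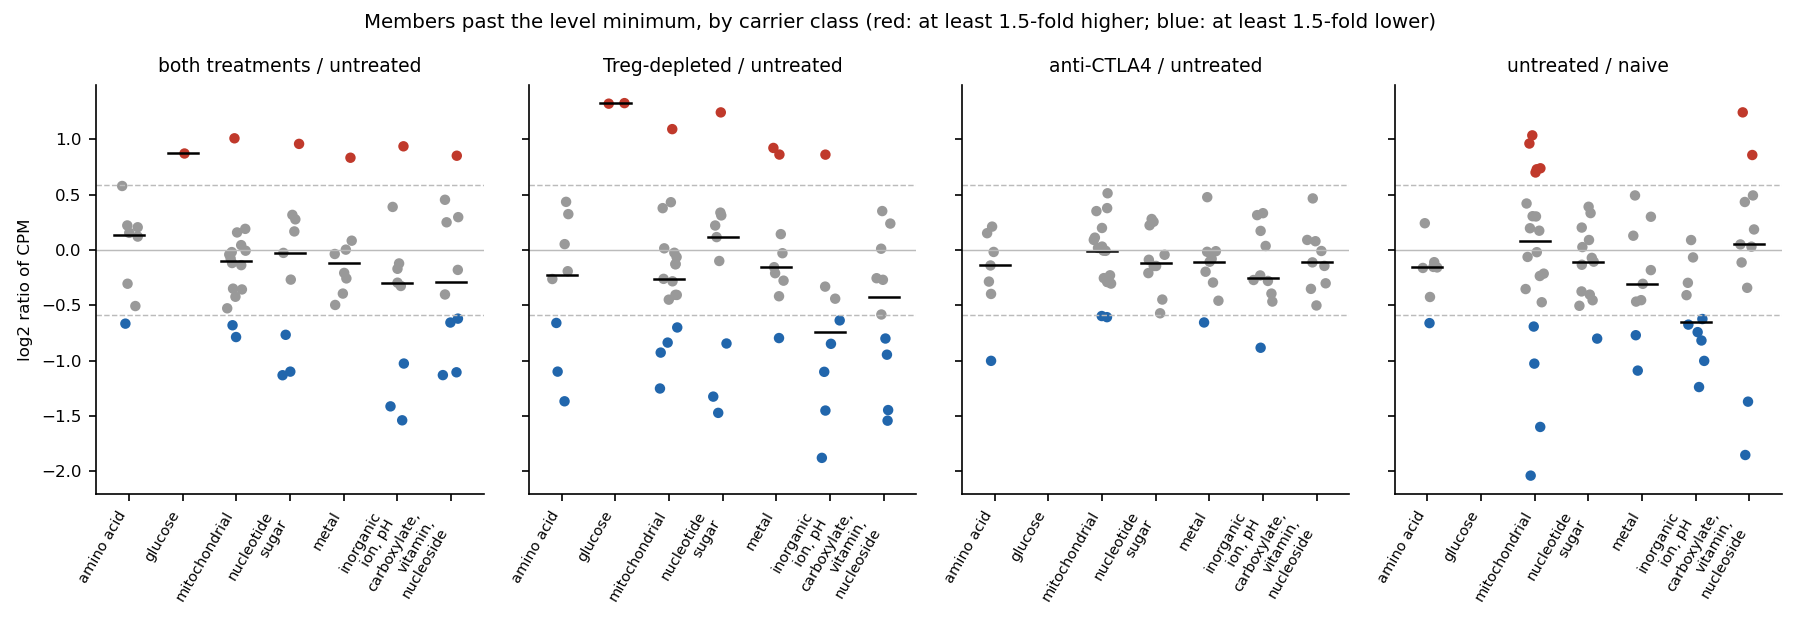
Log2 ratio of CPM for each compared member, by class, in 4 comparisons; black lines are medians, dashed lines 1.5-fold, and lipid carriers, Slc6, Slc15, Slc36 and Slc43 carriers and the members that are no carriers are not drawn. The glucose carriers that were compared lie above the upper line in both toxin libraries, and 0 members lie above it with antibody.

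With Treg depletion against untreated, 70 members were compared, of which 8 were higher and 22 lower, where 12.2% of all genes were higher and 27.5% lower. With both treatments 69 were compared, 8 higher and 14 lower, with 10.6% and 18.2% of all genes. TMM raised these log2 ratios by 0.28 and 0.16 and turned the splits into 15 higher and 13 lower and 12 higher and 10 lower. The 2 comparisons share the untreated library, the smallest of the 5. Without cells that held at least 2 markers of another cell type, 7 of 74 were higher and 14 lower with Treg depletion (7.18% and 12.5% of all genes). With both treatments 2 of 70 were then higher and 8 lower (7.98% and 7.61%). That filter left 741 of 2186 cells with Treg depletion, 2551 of 4343 with both treatments and 909 of 1099 untreated. Of the Foxp3-positive cells it left 158 of 1284 with Treg depletion and 387 of 1649 with both treatments. Markers were read in whole cells, and with Treg depletion the cells left out were deeper, at a median of 6877 against 3415 UMIs. Whether they were of another type was not tested. Among Foxp3-zero non-cycling cells 7 of 70 were higher and 9 lower with Treg depletion (6.14% and 13.5% of all genes), and 5 of 70 higher and 6 lower with both treatments (7.98% and 9.01%).

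The amino acid carriers in the toxin libraries were on the lower side where they passed 1.5-fold. With Treg depletion 3 of 8 compared were lower, all of the Slc38 family: Slc38a2 (166 against 427 CPM untreated, 2.58 times lower), Slc38a9 (30.6 against 65.6 CPM, 2.14 times lower) and Slc38a1 (168 against 266 CPM, 1.58 times lower). With both treatments 1 of 8 was lower, Slc38a9, at 41.4 against 65.6 CPM. Of the CD98 chains, Slc7a5 had 37.5 CPM with both treatments and 33.9 with Treg depletion, against 25.1 untreated. Slc3a2 lay above untreated with both treatments and below it with Treg depletion, at 246 and 185 CPM against 211 untreated, and both chains were short of 1.5-fold. In Foxp3-zero non-cycling cells Slc38a9 had 71.7 CPM with both treatments and 51.2 with Treg depletion against 73.2 untreated, and Slc38a1 331 and 216 against 261 CPM. Against the antibody library the difference was larger, since both treatments gave 2.47 times its Slc7a5 level (2.18 to 2.80) and 1.54 times its Slc3a2 level, at 246 against 160.3 CPM. Without Foxp3-positive and cycling cells Slc7a5 had 10.98 CPM with both treatments and 14.0 CPM with antibody, so its direction was turned there. Slc1a5 was even, at 114, 109, 122, 105 and 118 CPM from both treatments to naive, and so was the arginine carrier Slc7a1, at 48.0, 36.0, 42.6, 43.1 and 48.1 CPM. The cystine exchanger Slc7a11 was close to 0, at 0.474 CPM with both treatments, 0 with Treg depletion, 0.572 with antibody, 0 untreated and 0.581 naive. Among 24 other genes of the amino acid response and of amino acid synthesis, 11 were higher and 2 lower with Treg depletion, and 7 higher and 2 lower with both treatments, including the serine synthesis genes Phgdh and Psat1 on the higher side and Ddit4 and Ddit3 on the lower side. With both treatments 1 of 23 was higher and 4 lower in Foxp3-zero non-cycling cells, and Phgdh and Psat1 were then among the lower, while 4 of 23 were higher and 1 lower with Treg depletion, with neither gene among them.

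Members of other classes changed place in both toxin libraries. Slc35b1, a carrier of ATP into the endoplasmic reticulum, had 92.0 CPM with both treatments and 112 CPM with Treg depletion, against 57.5 with antibody, 47.3 untreated and 49.7 naive. Among Foxp3-zero non-cycling cells it had 53.0 and 64.0 CPM against 49.9 CPM untreated, both short of 1.5-fold. The oligopeptide carrier of the lysosome Slc15a3 had 50.8 and 44.5 CPM in the toxin libraries, against 4.18 with antibody, 1.05 untreated (4 UMIs) and 0.944 naive. With both treatments that is 48.6 times the untreated level (18.9 to 179) and 12.1 times the antibody level (10.0 to 14.9). Without the cells that held at least 2 markers of another cell type it had 23.3 CPM with both treatments, 25.1 with Treg depletion, 3.32 with antibody, 1.03 untreated and 0.234 naive. In Foxp3-zero cells with a receptor UMI Slc15a3 had 7.23 CPM with both treatments, 17.9 with Treg depletion, 3.54 with antibody and 0.769 untreated. Slc36a3os had 92.8 and 108 CPM in the toxin libraries against 43.1 untreated, but 29.1 and 57.6 CPM against 47.9 in Foxp3-zero non-cycling cells.

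On the lower side, the choline carrier Slc44a2 had 96.8 CPM with both treatments, 85.3 with Treg depletion, 153 with antibody, 221 untreated and 328 naive. The endosomal sodium and proton exchanger Slc9a9 had 19.8 and 21.1 CPM in the toxin libraries, against 64.8 with antibody, 57.5 untreated and 60.2 naive. Slc12a7 had 19.7 and 14.3 CPM in the toxin libraries, against 28.5 with antibody, 52.5 untreated and 64.5 naive. Within Foxp3-zero non-cycling cells Slc9a9 was 1.92 and 1.70 times lower than untreated and Slc12a7 1.53 and 2.31 times lower, while Slc44a2 had 196 and 196 CPM against 232. The nucleoside carrier Slc28a2, with 48.0 and 35.5 CPM against 103 untreated, shares 56.7% of such 3′ sequences with the listed gene Gm14085, so reads of the pair cannot be separated with certainty. Its Foxp3-zero non-cycling level was 78.2 and 72.6 against 97.2 CPM untreated, short of 1.5-fold. The phosphate carrier Slc20a1 had 37.9 CPM with both treatments and 36.0 with Treg depletion, against 55.9 with antibody, 77.1 untreated and 119 naive, 2.04 and 2.14 times below untreated. Slc35b3, which carries the sulfate donor PAPS into the Golgi, had 55.7 and 47.6 CPM in the toxin libraries against 119 untreated, and the sugar phosphate carrier Slc37a1 18.03 and 14.2 against 39.5 CPM. Among Foxp3-zero non-cycling cells Slc20a1 had 42.6 CPM with both treatments and 34.2 with Treg depletion against 78.6 untreated. In the same cells Slc35b3 had 76.9 and 100.3 against 115 CPM, and Slc37a1 33.0 and 26.7 against 36.0 CPM. The bicarbonate cotransporter Slc4a7 lay on the higher side, at 62.6 and 59.4 CPM against 32.7 untreated. Its Foxp3-zero non-cycling level was 56.2 CPM with both treatments, 35.2 with Treg depletion and 38.0 untreated. A pair of zinc carriers stayed within 1.5-fold of untreated in every library, with Slc39a1, a zinc importer, at 61.2, 51.9, 57.4, 57.8 and 52.8 CPM and Slc30a5, a zinc exporter into the Golgi, at 34.0, 36.9, 36.5, 44.7 and 61.2 CPM from both treatments to naive.

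The antibody contrast was available with and without toxin. With toxin given to both sides, 65 members were compared between both treatments and Treg depletion alone, and 3 were higher and 0 lower, where 4.44% of all genes compared were higher and 0.99% lower. They included Slc38a2 (301 against 166 CPM, 1.82 times, 1.73 to 1.90) and Slc25a36 (59.1 against 31.6 CPM, 1.87 times, 1.68 to 2.08). Without toxin, Slc38a2 and Slc25a36 were 2.00 and 1.52 times lower with antibody than untreated. Both genes thus lay on opposite sides of 1 in the 2 forms of the contrast, and the difference between them was not tested. How many of all genes did the same was not counted. In Foxp3-zero non-cycling cells Slc38a2 had 497 CPM with both treatments against 251 with Treg depletion (1.98 times), and 249 CPM with antibody against 405 untreated (1.63 times lower). In Foxp3-zero cycling cells it had 413 against 203 CPM and 189 against 380.2 CPM, and in Foxp3-zero cells with a receptor UMI 505 against 219 CPM and 204 against 400.5 CPM. With toxin the difference in Slc38a2 was as large within each of these sets as in the whole libraries, and without toxin it was smaller among Foxp3-zero non-cycling cells and as large in the other sets. Slc25a36 had 109 CPM with both treatments against 52.3 with Treg depletion in Foxp3-zero non-cycling cells, and 67.1 CPM with antibody against 79.2 untreated, where the second difference was short of 1.5-fold. Of its 3′ sequences 22.3% also occur in other genes, mainly Gm13217. Among 70 members compared in Foxp3-zero non-cycling cells, 10 were higher and 5 lower with both treatments than with Treg depletion (12.7% and 5.88% of all genes), Slc38a1 (331 against 216 CPM) among those higher. TMM lowered the log2 ratios of both treatments against Treg depletion over all cells by 0.11 and left the split at 3 higher and 0 lower.

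**Figure D3:**
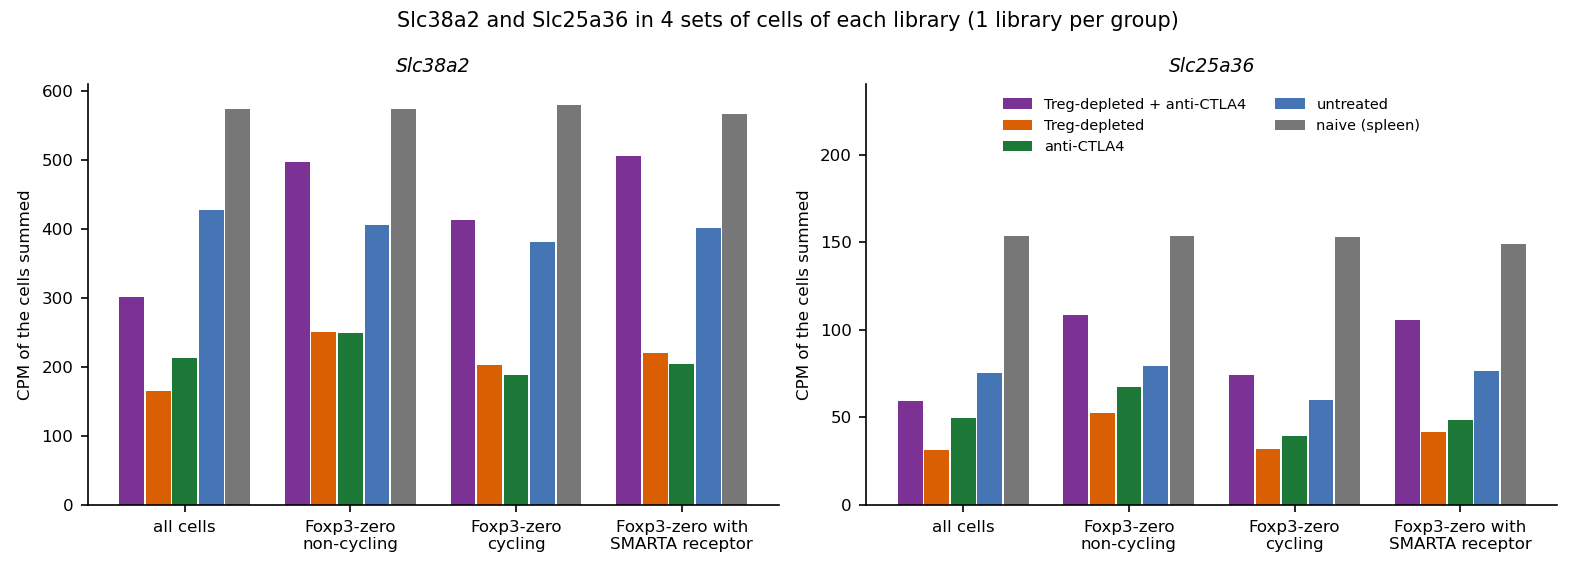
CPM of Slc38a2 and Slc25a36 in all cells and in 3 sets of Foxp3-zero cells, 1 bar per library (1 library per group, bars start at 0). In all 4 sets Slc38a2 is higher with both treatments than with Treg depletion (301 against 166 CPM in all cells) and lower with antibody than untreated (213 against 427 CPM).

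Between both treatments and antibody alone, 68 members were compared, 9 higher and 7 lower, with 7.81% and 9.64% of all genes; under TMM the split was 10 higher and 5 lower. In Foxp3-zero non-cycling cells 8 of 69 were higher and 3 lower (10.2% and 8.93% of all genes), and in Foxp3-zero cells with a receptor UMI 12 of 70 higher and 3 lower (15.7% and 11.4%). Beside Slc15a3 and Slc7a5 the higher ones included Slc2a1 (34.2 against 17.7 CPM, 1.93 times). In Foxp3-zero cells with a receptor UMI Slc2a1 had 19.0 against 16.7 CPM. On the lower side stood Slc9a9 (19.8 against 64.8 CPM, 3.27 times lower), the lysosomal nucleoside carrier Slc29a3 (16.1 against 35.1 CPM), the myo-inositol carrier Slc5a3 (26.6 against 44.6 CPM) and Slc44a2 (96.8 against 153 CPM). In Foxp3-zero cells with a receptor UMI Slc9a9 had 31.04 against 64.1 CPM and Slc29a3 26.8 against 36.0 CPM. In the same cells Slc5a3 was even at 47.6 against 47.3 CPM, and the direction of Slc44a2 was turned, at 194 against 153 CPM. Without cells that held markers of another type Slc44a2 had 172 against 169 CPM.

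Cells were called cycling with at least 2 of the genes of a fixed cell cycle list after thinning to 1000 UMIs and non-cycling with 0; cells with 1, and cells under that depth, were left out. Cycling cells made up 52.6% with both treatments, 56.2% with Treg depletion, 44.4% with antibody, 21.9% untreated and 17.3% naive. In the naive library the call carried little, since Mki67 reached 7.21 CPM in the cells called cycling, against 224 to 766 CPM in those of the tumor libraries. There 0 of 81 members were 1.5-fold apart, where 0.339% of all genes compared were higher and 0.133% lower.

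In the 4 tumor libraries more members were lower than higher in cycling cells. With both treatments 5 of 70 were higher and 15 lower (13.8% and 23.9% of all genes compared), with Treg depletion 6 and 17 of 68 (15.4% and 20.5%), with antibody 2 and 12 of 69 (8.6% and 10.3%), and untreated 4 and 5 of 73 (6.57% and 5.29%). TMM raised the log2 ratios of cycling cells by 0.24, 0.19, 0.17 and 0.05 in these libraries, and gave 9 higher and 9 lower, 8 and 10, 4 and 5, and 6 and 4. Under that scaling the lower members outnumbered the higher ones with Treg depletion and antibody, and not with both treatments or untreated.

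Slc7a5 was the 1 member at least 1.5-fold higher in cycling cells of 3 tumor libraries. It had 47.0 CPM in cycling against 11.4 in non-cycling cells with both treatments (4.14 times, 2.78 to 6.46), 42.3 against 10.3 CPM with Treg depletion (4.09 times, 2.65 to 6.67) and 35.2 against 19.7 CPM untreated (1.78 times, 1.08 to 2.98). With antibody it had 17.2 against 13.9 CPM, below the level minimum. In Foxp3-zero cells it had 27.9 against 10.98 CPM with both treatments and 23.0 against 6.40 CPM with Treg depletion. Its partner Slc3a2 went the other way without reaching 1.5-fold, at 224 against 295 CPM with both treatments, 173 against 222 with Treg depletion, 142 against 194 with antibody and 189.8 against 203 untreated. The chains of the exchanger were thus not higher together in cycling cells.

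Slc43a3, a purine base carrier, had 33.3 CPM in cycling against 4.09 in non-cycling cells with both treatments, 37.8 against 3.45 with Treg depletion, 44.9 against 6.24 with antibody and 17.6 against 2.63 untreated. With antibody it passed the level minimum, at 7.19 times (5.12 to 10.4), and it lay higher in cycling cells of all 4 tumor libraries. The aspartate and glutamate carrier Slc25a13 had 36.2 against 18.7 CPM with antibody (1.93 times), and the dicarboxylate carrier Slc25a10, below the minimum, 23.3 against 4.54 CPM with both treatments, 25.6 against 5.91 with Treg depletion, 19.2 against 5.17 with antibody and 13.0 against 7.89 untreated. Slc25a5 had 1516 against 1055, 1649 against 1239, 1733 against 1237 and 1419 against 1137 CPM, higher in cycling cells of each tumor library and short of 1.5-fold in all. The monocarboxylate carrier Slc16a1 had 38.5 against 21.2 CPM with Treg depletion (1.82 times) and 36.1 against 21.7 CPM untreated (1.66 times).

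**Figure D4:**
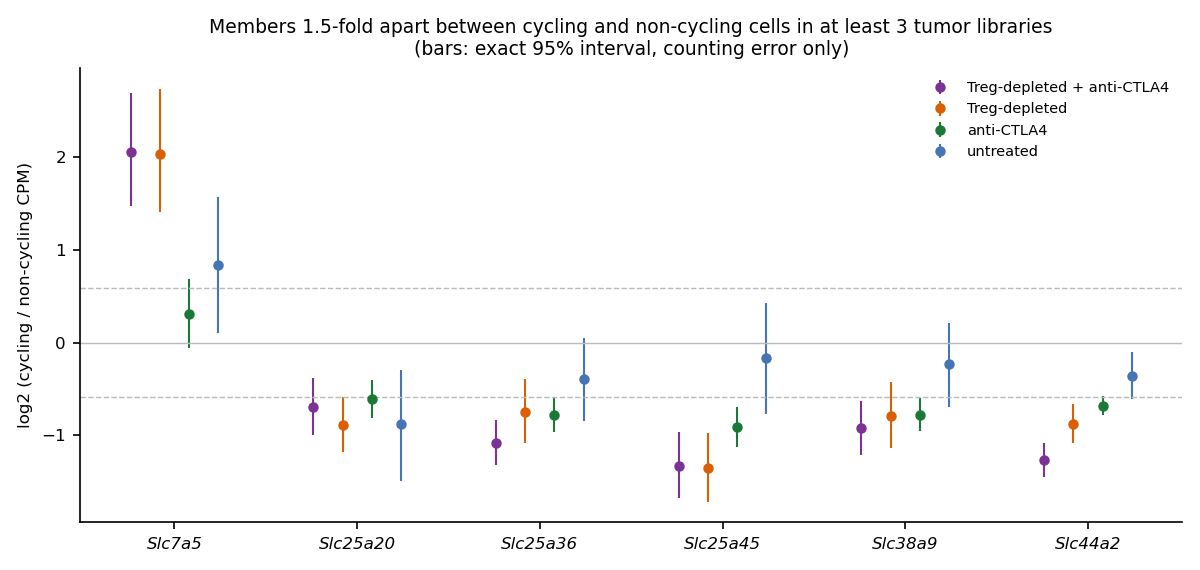
Log2 ratio of cycling over non-cycling CPM in the 4 tumor libraries, with exact 95% intervals (counting error only), for 6 of the 7 members 1.5-fold apart in at least 3 of them; dashed lines are 1.5-fold. Slc7a5 lies above 0 in all 4 libraries and above 1.5-fold in 3, and the other 5 members drawn lie below 0 in all 4.

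There were 6 members at least 1.5-fold lower in cycling cells of 3 or more tumor libraries, including Slc44a2, Slc25a36, Slc25a20, Slc38a9 and Slc25a45. How many of all genes were higher or lower in 3 or more tumor libraries was not counted. Slc25a20, the carnitine and acylcarnitine carrier that brings fatty acids to oxidation, was lower in all 4, although 26.5% of its 3′ sequences also occur in other genes, at 32.3 against 52.2 CPM with both treatments, 33.8 against 62.5 with Treg depletion, 34.4 against 52.6 with antibody and 31.5 against 57.9 untreated. Slc44a2 had 66.7 against 160.3 CPM with both treatments (2.40 times lower), 67.3 against 124 with Treg depletion, 126 against 202 with antibody and 185 against 237 untreated. Slc38a9 had 32.3 against 61.3, 24.8 against 42.8, 43.8 against 75.1 and 62.0 against 73.0 CPM in the same order. Without cells that held markers of another type the log2 ratio of Slc38a9 was 0.11 with Treg depletion, so its direction was turned there. Outside that group, Slc9a9 had 48.4 against 94.0 CPM with antibody (1.94 times lower) and 37.0 against 69.7 CPM untreated (1.88 times lower). Slc29a1 had 96.7 against 50.2 CPM with Treg depletion (1.93 times), and lay higher in cycling cells of the other tumor libraries by less than 1.5-fold. In Foxp3-zero cells the count with both treatments was 1 higher and 5 lower of 71 (7.89% and 4.86% of all genes), and with Treg depletion 4 higher and 17 lower of 67 (12.2% and 14.4%). Slc2a3 was lower in cycling cells with Treg depletion, at 30.4 against 77.8 CPM (2.56 times lower), while in its Foxp3-zero cells the values were 26.8 and 28.8 CPM. The zinc carrier Slc30a9 had 31.4 CPM in cycling against 48.6 CPM in non-cycling cells with both treatments and 33.2 against 52.2 CPM with Treg depletion, but 50.9 against 30.3 CPM untreated (1.68 times, 1.12 to 2.55).

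Foxp3-positive cells, with at least 1 Foxp3 UMI, were numerous enough to compare only in the toxin libraries, with 1649 against 2694 Foxp3-zero cells with both treatments and 1284 against 902 with Treg depletion. They were also deeper, at medians of 4599 against 1952.5 UMIs and 6611.5 against 3835.5 UMIs, and more of them cycled. Foxp3-positive cells held 1144 cycling and 199 non-cycling cells with both treatments, against 937 and 650 among Foxp3-zero cells, and 822 and 233 with Treg depletion, against 387 and 244. With both treatments 71 members were compared, 11 higher and 16 lower (13.3% and 27.4% of all genes), and with Treg depletion 66, 7 higher and 12 lower (8.34% and 14.1%). TMM raised the log2 ratios by 0.28 and 0.18 and gave 15 higher and 10 lower, and 12 higher and 7 lower. With Foxp3 called after thinning each cell to 1000 UMIs, 3 of 67 were higher and 3 lower with both treatments (2.74% and 7.6% of all genes), and 3 of 64 higher and 3 lower with Treg depletion (3.83% and 3.29%), so most of these calls were lost. Foxp3-positive cells held 560 and 541 Foxp3 CPM in these libraries, so a draw of 1000 UMIs misses Foxp3 in many of them. Those cells then count as Foxp3-zero, which by itself brings the sides closer. How many calls were lost through this mixing was not tested. In non-cycling cells 12 of 72 were higher and 19 lower with both treatments (10.7% and 24% of all genes), and 14 of 67 higher and 12 lower with Treg depletion (10.3% and 18.7%). With Foxp3 called before thinning, 6 of the higher members were shared, 54.5% of the list with both treatments and 85.7% of that with Treg depletion. Of the lower ones 10 were shared, which is 62.5% and 83.3%, and 0 members lay on opposite sides. The same overlap over all genes was not counted, so these shares have no background to be read against.

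The shared higher members included Slc15a3, Slc36a3os, Slc2a3, Slc7a5 and Slc35b1. Slc2a3 had 42.3 CPM in Foxp3-positive against 16.9 in Foxp3-zero cells with both treatments (2.50 times, 2.03 to 3.12) and 47.8 against 25.5 with Treg depletion (1.88 times, 1.54 to 2.30). In non-cycling cells it had 76.3 against 16.8 CPM and 119.7 against 28.8 CPM, 4.54 and 4.15 times as much. The ratio was therefore larger among non-cycling cells in both libraries. Slc2a1 had 48.9 against 20.7 CPM and 77.6 against 33.1 CPM in non-cycling cells, 2.36 and 2.35 times as much, against 1.99 and 1.29 times over all cells. Slc15a3 had 120.6 against 16.2 CPM and 96.8 against 14.9 CPM in non-cycling cells, 7.47 and 6.48 times as much.

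Slc7a5 had 48.1 against 20.0 CPM with both treatments (2.40 times, 1.98 to 2.94) and 41.2 against 16.8 CPM with Treg depletion (2.45 times, 1.93 to 3.15). In non-cycling cells the values were 12.2 against 10.98 CPM and 13.7 against 6.40 CPM, and in cycling cells 53.2 against 27.9 and 48.4 against 23.0 CPM. With Foxp3 called after thinning to 1000 UMIs, the log2 ratio with Treg depletion was -0.40, so the direction of Slc7a5 there depends on how deeply Foxp3 is read. The folate carrier Slc19a1 had 38.7 against 16.4 CPM with both treatments (2.35 times) and 30.9 against 22.6 CPM with Treg depletion, which is short of 1.5-fold. Of the genes outside the families, 9 of 25 compared of the amino acid list were higher and 2 lower in Foxp3-positive cells with both treatments, and 5 of 25 higher and 2 lower with Treg depletion. Of the glucose use list, 8 of 21 were higher and 3 lower, and 2 of 20 higher and 2 lower.

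**Figure D5:**
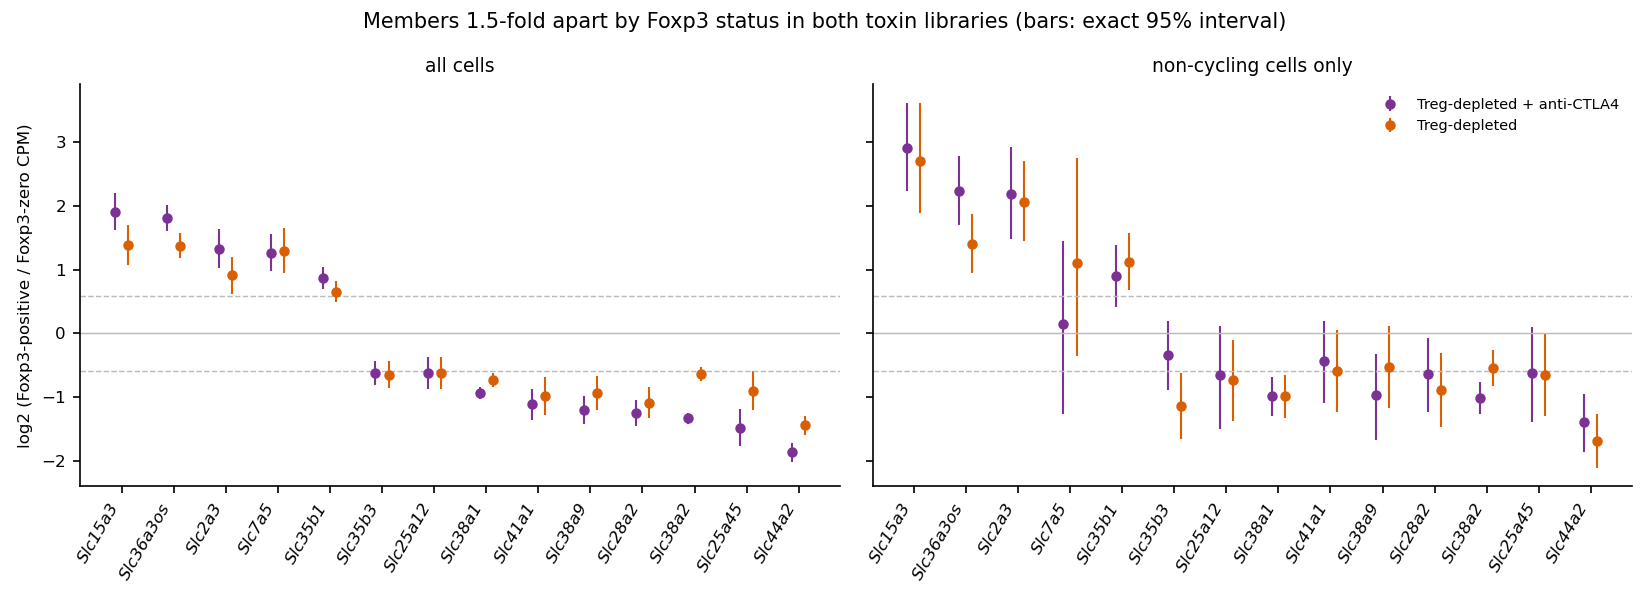
Log2 ratio of Foxp3-positive over Foxp3-zero CPM for 14 of the 16 members 1.5-fold apart in both toxin libraries, in all cells (left) and in non-cycling cells (right), with exact 95% intervals; dashed lines are 1.5-fold. Slc15a3, Slc36a3os, Slc2a3 and Slc35b1 stay above the upper line among non-cycling cells, and Slc44a2, Slc38a1, Slc25a12, Slc25a45 and Slc28a2 below the lower one. Foxp3 was called before thinning, and most of these calls were lost with Foxp3 called after it. The later call puts Foxp3-positive cells whose Foxp3 UMI was not drawn on the Foxp3-zero side.

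The shared lower members held 3 of the Slc38 family. Slc38a2 had 191 CPM in Foxp3-positive against 481 in Foxp3-zero cells with both treatments (2.52 times lower, 2.38 to 2.67), and 142 against 221 CPM with Treg depletion. Slc38a1 had 159.9 against 306 CPM with both treatments and 141 against 233 CPM with Treg depletion. Slc38a9 had 27.7 against 63.8 and 24.1 against 46.0 CPM. All 3 lay lower in Foxp3-positive cells of both libraries. In non-cycling cells Slc38a1 was 1.97 and 1.98 times lower, and Slc38a2 2.01 times lower with both treatments and 1.46 times lower with Treg depletion. Slc44a2 had 48.3 against 176 CPM and 56.3 against 153 CPM over all cells, 3.65 and 2.72 times lower, and was 2.63 and 3.21 times lower among non-cycling cells. The others included Slc25a12, Slc25a45, Slc28a2, Slc35b3 and Slc41a1, each 1.53 to 2.79 times lower over all cells. With Foxp3 called after thinning the log2 ratio of Slc41a1 with Treg depletion was 0.00832, so its direction was turned there. Slc25a5 and Slc25a4 were near even, at 1514 against 1119 CPM and 596 against 482 CPM with both treatments, and 1511 against 1651 CPM and 642 against 729.7 CPM with Treg depletion. All 4 ratios of these exchangers were under 1.5-fold.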

How the data were processed

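The tables hold whole-number UMI counts per gene and cell, as the authors deposited them for 5 libraries, 1 per group. Per the submitters' processing notes, bcl2fastq 2.20, Cell Ranger 6.0.0, R 4.1.1, Seurat 4.0.4 and the mm10 build were used, with no role or order given; cell and gene filters and doublet removal are not given in the sources used here. Doublets were not called here. Counts were summed per library or cell state and scaled to CPM of the listed genes, with all cells kept. Ratios carry exact 95% conditional binomial (Clopper-Pearson) intervals and levels exact Poisson intervals, for counting error alone. Cells of 1 library are no replicates, so no p-value was computed. A side with 0 UMIs was set to 3 UMIs for the fold, and the exact interval bound is given beside it.

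The members and lists were chosen with earlier results of these data known. In each comparison up to 6 members per direction were named, by the interval bound nearest to 1, beside a fixed set of carriers. A member or gene not reached by that rule is given only where a count of lower or higher members is spelled out. Cells were thinned to 1000 UMIs (500 as an alternative) to call cycling. Other alternatives were TMM factors, totals without mitochondrial and ribosomal protein genes, minima of 10 and 100 CPM, the mean CPM of single cells, cells without markers of another type, at least 3 cycling genes, Foxp3 called after thinning, and Foxp3-zero, non-cycling or receptor-positive cells alone. Results of 2 members are not reported here, although both stay in the counts and sums. The calling script was tested on simulated data. Coordinates are those of GENCODE M21 on GRCm38, found for 178 members (Slc49a4 has none). Tools were Python 3.11.15, numpy 2.4.6, scipy 1.17.1, pandas 2.3.3, matplotlib 3.10.9, R 4.3.3 and edgeR 4.0.16, the last for TMM factors only.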

Additional observations from a re-analysis of the deposited data

Results flagged for a closer look

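Slc38a2 and Slc25a36 stood out because they lay on opposite sides of 1 in the antibody contrast with and without toxin. Both were at least 1.5-fold higher with both treatments than with Treg depletion and at least 1.5-fold lower with antibody than untreated. The log2 ratios of the 2 forms of the contrast differed by 1.861 for Slc38a2 and by 1.508 for Slc25a36. With 1 library per group these differences were not tested. Opposite calls over all genes were not counted, so these members have no background to be read against.

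Slc30a9 stood out because its cycling contrast ran opposite between libraries. Its log2 ratio of cycling over non-cycling cells was lower by 1.38 with both treatments than untreated (a difference of -1.38), and the difference between Treg depletion and untreated was -1.404. These differences were not tested either, and with cycling called at 500 UMIs the untreated log2 ratio was -0.19. Opposite cycling calls over all genes were not counted.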

How the results depend on the processing

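Each count below is of members at least 1.5-fold apart, higher and lower together. With a minimum of 100 CPM it was 3 for untreated against naive, 1 for antibody, 3 for Treg depletion and 1 for both treatments against untreated, 2 for both treatments against antibody and 1 against Treg depletion. Cycling cells then gave 2 with both treatments, 1 with Treg depletion, 2 with antibody and 0 untreated, and Foxp3-positive cells 3 with both treatments and 5 with Treg depletion. With a minimum of 10 CPM the same counts were 52, 18, 53, 46, 30 and 7, then 37, 42, 28 and 23 (2 in naive cells), then 45 and 32. In Foxp3-zero non-cycling cells Treg depletion gave 16 and both treatments 11 against untreated, and both treatments 15 against Treg depletion. In receptor-positive Foxp3-zero cells these were 14, 13 and 13. Without cells holding markers of another type, both treatments gave 10 against untreated and 9 against Treg depletion, and cycling cells 11 with both treatments and 12 with Treg depletion. The mean CPM of single cells gave 10 for both treatments against antibody and 10 against Treg depletion, and for cycling cells 9 with both treatments, 12 with Treg depletion and 5 with antibody. Cycling against non-cycling Foxp3-zero cells with both treatments gave 6, TMM in the antibody library 9, at least 3 cycling genes 14 untreated and 1 naive, and 500 UMIs 3 naive. Foxp3 called after thinning gave 6 with both treatments and 6 with Treg depletion. Totals without mitochondrial and ribosomal genes kept all 13 counts within 1.5 times. They shifted the log2 ratios by 0.0017 at most, so this alternative could hardly move a count.

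A called log2 ratio changed sign 22 times under the alternatives. In Foxp3-zero non-cycling cells these were Slc25a30 (0.0724) for antibody against untreated, Slc4a7 (-0.11) for Treg depletion against untreated, Slc2a1 (-0.0432) and Slc36a3os (-0.72) for both treatments against untreated, and Slc35b1 (-0.0656), Slc36a3os (-0.92) and Slc7a5 (-0.35) for both treatments against antibody. In receptor-positive cells they were Slc36a3os (-0.0188) for Treg depletion against untreated, Slc35b1 (-0.0437), Slc36a3os (-0.64) and Slc38a9 (0.0946) for both treatments against untreated, and Slc35b1 (-0.25), Slc36a3os (-1.03), Slc44a2 (0.34) and Slc5a3 (0.0094) for both treatments against antibody. Without cells holding markers of another type they were Slc36a3os (-0.0787) and Slc44a2 (0.0335) for both treatments against antibody, and Slc31a1 (-0.38) and Slc38a9 (0.11) in cycling cells with Treg depletion. The others were Slc30a9 (-0.19) in untreated cycling cells at 500 UMIs, and Slc41a1 (0.00832) and Slc7a5 (-0.40) in Foxp3-positive cells with Treg depletion with Foxp3 called after thinning. The cause was not tested in any of these.

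No paired analysis was possible because each group has 1 library. Depth limits the untreated library most, with 3825958 UMIs, where 3 UMIs are 0.784 CPM. Library, mouse and treatment cannot be told apart.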

Other observations

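Several members below the level minimum lay far apart between libraries. They were picked after their values were seen, as those at least 5-fold apart. Slc22a2, an organic cation carrier, had 34.2 CPM in untreated cells (131 UMIs) against 0.145 CPM in naive cells (2 UMIs), a ratio of 236 (64.0 to 1967). It had 3.62 CPM with both treatments, 1.86 CPM with Treg depletion and 12.2 CPM with antibody. Slc9b2, a sodium and proton exchanger, had 23.3 CPM untreated against 0.508 naive, 45.8 times as much (21.3 to 117).

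Slc15a2, a peptide carrier, had 0 UMIs in untreated cells and 329 in naive cells, at least 30.5-fold lower. The iron exporter Slc40a1 had 0 UMIs in each of the 4 tumor libraries and 7.26 CPM in naive cells (100 UMIs), but 0.312 CPM in naive cells without markers of another type. The zinc carrier Slc30a2 had 191 UMIs with both treatments and 182 with Treg depletion against 0 untreated, at least 14.4-fold higher in each. Its level with antibody was 0.822 CPM, against which both treatments gave 13.8 times as much (8.91 to 22.2). The monocarboxylate family member Slc16a5 had 11 UMIs with both treatments and 37 untreated, 14.8 times lower.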
